A study of Mus musculus with 24 samples.

Results

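Kruppel-like factors are zinc finger transcription factors, and 9 of them (Klf2, Klf3, Klf4, Klf5, Klf6, Klf7, Klf9, Klf10 and Klf13) are described here across 8 groups of retinal endothelial cell cultures. Every probe set whose annotated symbol was one of these genes was taken, which gave 33 of the 45101 probe sets on the mouse array and 9 of 18193 genes. Klf3 and Klf9 had 7 probe sets each, Klf6 had 5, Klf7 had 4, Klf5 and Klf13 had 3 each, Klf4 had 2, and Klf2 and Klf10 had 1 each. Each gene is represented by its brightest probe set over the 24 arrays, and values are log2 intensities unless stated otherwise.

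The cells lacked the receptor frizzled-4 (Fz4-/-) or were wild type, and each genotype was grown on Matrigel, on gelatin, with human HEK293 cells that secrete its ligand Norrin, or with control HEK293 cells, with 3 arrays per group. Both genotypes were immuno-purified from adult mice of mixed gender (C57Bl6/129 mixed background) that also carried a temperature-sensitive SV40 large T antigen under the H2Kb promoter, and RNA came from cells kept at 37 °C without interferon gamma. Matrigel cultures spent 24 hours in 1% serum and then 6 hours on the basement membrane extract in the same medium, a serum change that is not stated for gelatin, so that surface and serum cannot be told apart. Co-culture RNA was a mixture in about equal parts of mouse and human RNA. The labels do not say whether the 3 arrays of a group came from separate cultures or separately derived lines, and the p-values therefore speak of the spread among these arrays alone.

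Fzd4, which encodes frizzled-4, averaged 5.06 ± 0.44 in Fz4-/- cells and 8.70 ± 0.35 in wild type cells on gelatin (SD, n = 3 each). Pecam1, an endothelial adhesion molecule, averaged 11.39 to 11.86 in the 4 groups grown alone, while Vwf, the gene of von Willebrand factor, which mature endothelium stores for clotting, averaged 3.30 or less in all 8 groups. Of 5 leukocyte markers, the pan-leukocyte Ptprc averaged 2.90 or less in all 8 groups. In cells grown alone Adgre1 averaged 3.36 to 3.83 and Itgam 3.19 to 3.45, whereas Csf1r averaged 5.73 to 6.02 and Cd68, abundant in macrophages, 8.83 to 9.56. The arrays fell into 3 sets by their median, at 5.02 to 5.11 for cells grown alone, 3.21 to 3.31 for Fz4-/- co-cultures and 3.44 to 3.52 for wild type co-cultures. Genotype and array set cannot be told apart in co-culture, so there the genotypes were compared only by their responses to Norrin. Replicate 1 stood apart in 6 of the 8 groups, where the SD over genes of its log2 differences from replicates 2 and 3 was 0.299 to 0.354, against 0.147 to 0.193 between those 2 arrays.

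Members of the family bind GC-rich and CACCC sequences in promoters. In endothelium Klf2 and Klf4 are known as the factors that laminar flow switches on through the kinases Map3k3, Map2k5 and Mapk7 and the Mef2 factors, and they raise anticoagulant and vasodilator genes and hold inflammatory genes down. The cerebral cavernous malformation proteins keep that kinase route in check, and Norrin acts through frizzled-4 and beta-catenin to build the retinal vasculature and its barrier.

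RefSeq (GRCm38.p6) held a promoter for 7 of the 9 members. Those of Klf2 and Klf4, the flow-responsive pair, and of Klf3 and Klf6, which rose with Norrin, are shown from 250 bases before to 50 bases after the annotated start of the gene. In Klf2, at chr8:72318812-72319111 on the plus strand, capitals mark a match to a loose form of the Mef2 box, which starts 118 bases before the annotated start. This form is CTA and TAG with 4 bases of any kind between them, a pattern equal to its own reverse complement. In Klf2 the 4 inner bases were A and T only. In Klf3 (chr5:64803271-64803570, plus strand), Klf4 (chr4:55532426-55532725, minus strand) and Klf6 (chr13:5861239-5861538, plus strand) capitals mark GC boxes (GGGCGG on either strand), to which Sp and Kruppel-like factors bind.
Klf2: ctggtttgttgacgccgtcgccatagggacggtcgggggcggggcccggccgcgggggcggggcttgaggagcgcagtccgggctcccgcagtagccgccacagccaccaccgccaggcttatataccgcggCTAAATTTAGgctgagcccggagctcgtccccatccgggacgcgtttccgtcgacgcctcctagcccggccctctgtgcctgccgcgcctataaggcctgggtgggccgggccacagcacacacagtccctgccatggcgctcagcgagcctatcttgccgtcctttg
Klf3: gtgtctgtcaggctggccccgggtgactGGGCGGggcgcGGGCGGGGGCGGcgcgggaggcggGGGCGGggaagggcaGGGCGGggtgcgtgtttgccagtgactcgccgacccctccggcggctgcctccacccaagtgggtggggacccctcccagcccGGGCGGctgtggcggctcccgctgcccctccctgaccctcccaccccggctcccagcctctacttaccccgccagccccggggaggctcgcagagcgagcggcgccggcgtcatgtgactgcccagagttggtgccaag
Klf4: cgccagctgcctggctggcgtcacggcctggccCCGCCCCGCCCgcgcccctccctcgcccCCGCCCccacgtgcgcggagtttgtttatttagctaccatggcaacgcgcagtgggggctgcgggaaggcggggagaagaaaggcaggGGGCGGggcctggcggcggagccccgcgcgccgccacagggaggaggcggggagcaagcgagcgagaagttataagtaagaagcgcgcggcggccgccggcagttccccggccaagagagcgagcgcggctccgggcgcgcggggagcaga
Klf6: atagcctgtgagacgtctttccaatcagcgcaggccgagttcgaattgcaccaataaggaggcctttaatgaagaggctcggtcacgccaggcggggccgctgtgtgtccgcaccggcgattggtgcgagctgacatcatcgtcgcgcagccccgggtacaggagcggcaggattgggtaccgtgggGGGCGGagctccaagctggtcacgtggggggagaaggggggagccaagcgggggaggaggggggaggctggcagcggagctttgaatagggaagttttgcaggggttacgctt
The loose Mef2 pattern was present in the Klf2 window and in none of the other 6 member promoters at hand, and 3.69% of 32851 mouse promoters of this length held it. The share with only A and T at the 4 inner bases was not counted. The Klf3 window held 6 GC boxes, Klf4 had 4, Klf13 had 3, Klf2 had 2, and Klf6 and Klf7 had 1 each, against 35.7% of all promoters with at least 1. The Klf9 window had no GC box. CACCC boxes (CCACCC on either strand) lay in Klf3 and Klf7, 3 in each, and in Klf2 and Klf13, 1 in each, and 31.5% of all promoters held this motif. In the Klf13 window a CACCC box shared 2 letters with a GC box. The core of the cyclic AMP response element (TGACG on either strand, 20.8% of all promoters) lay in the Klf2, Klf3, Klf4, Klf9 and Klf13 windows, and the CArG box (1.63%) and the TATA box as TATAAA (13.6%) in none of the 7. These matches describe the letters in the window only. Klf5 and Klf10 were named only, with no promoter shown.

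Klf5 was lower in Fz4-/- than in wild type cells on both surfaces, and lower on Matrigel than on gelatin in both genotypes. Klf5 activates growth genes in proliferating epithelium and in smooth muscle after injury. On gelatin it measured 7.44, 7.92 and 7.96 in Fz4-/- cells, against 9.12, 8.89 and 8.91 in wild type cells. On Matrigel it measured 6.42, 6.47 and 6.64 in Fz4-/- cells, against 7.88, 7.80 and 7.71 in wild type cells. The genotypes did not overlap on either surface. The log2 difference was -1.20 ± 0.13 on gelatin (SE, n = 3 per group, adjusted p = 0.000107) and -1.29 ± 0.13 on Matrigel (adjusted p = 6.38e-05). The difference between Matrigel and gelatin was -1.27 ± 0.13 log2 in Fz4-/- cells (adjusted p = 0.00016) and -1.17 ± 0.13 log2 in wild type cells (adjusted p = 0.000318). The difference between these responses was -0.09 (95% interval -0.51 to 0.32). The order of levels was thus wild type on gelatin highest and Fz4-/- on Matrigel lowest, with Fz4-/- on gelatin (7.77 ± 0.29, SD) and wild type on Matrigel (7.80 ± 0.08, SD) overlapping between them. These calls rest on the brightest of the 3 Klf5 probe sets, and in each of the 4 comparisons 1 of 3 was called, where 12.6% and 13.3% of all probe sets were called by genotype on gelatin and on Matrigel, and 19.1% and 17.2% by surface in Fz4-/- and in wild type cells. The other probe sets were dim, at means of 4.62 to 5.29 and of 2.63 to 2.80 in cells grown alone, and with the brighter of them in its place the differences were -0.41 and -0.24 by genotype and -0.25 and -0.43 by surface, none past the threshold. In the co-cultures Klf5 averaged between 3.53 and 3.99, and Norrin gave no call (-0.46 in Fz4-/- cells, adjusted p = 0.329, and -0.09 in wild type cells, adjusted p = 0.824).

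Klf13 was higher in Fz4-/- cells on both surfaces. Klf13 is known from T lymphocytes, where it drives a late chemokine gene, and from the heart. It measured 9.44, 9.05 and 9.08 in Fz4-/- cells and 8.51, 8.44 and 8.44 in wild type cells on gelatin. On Matrigel it measured 8.81, 8.56 and 8.69 in Fz4-/- cells and 8.29, 8.21 and 8.12 in wild type cells. Every Fz4-/- array lay above every wild type array of the same surface. The log2 differences were 0.73 ± 0.11 on gelatin (adjusted p = 0.000946) and 0.48 ± 0.11 on Matrigel (adjusted p = 0.0115). Klf13 was also lower on Matrigel than on gelatin in Fz4-/- cells, with a log2 difference of -0.50 ± 0.11 (adjusted p = 0.00839). In wild type cells the value was -0.26 ± 0.11 (adjusted p = 0.126, and 0.0428 with the replicate number as a block). A second Klf13 probe set gave 0.67 on gelatin and 0.34 on Matrigel for the genotypes, the first past the threshold over all probe sets, and the third was dim at 5.28 to 5.55 with no call. The gelatin difference kept its call under all 17 alternatives run, whereas the Matrigel difference lost it under 4 (adjusted p 0.0508 to 0.134) and the fall on Matrigel in Fz4-/- cells under 2 (adjusted p 0.0669 and 0.0948).

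**Figure D1:**
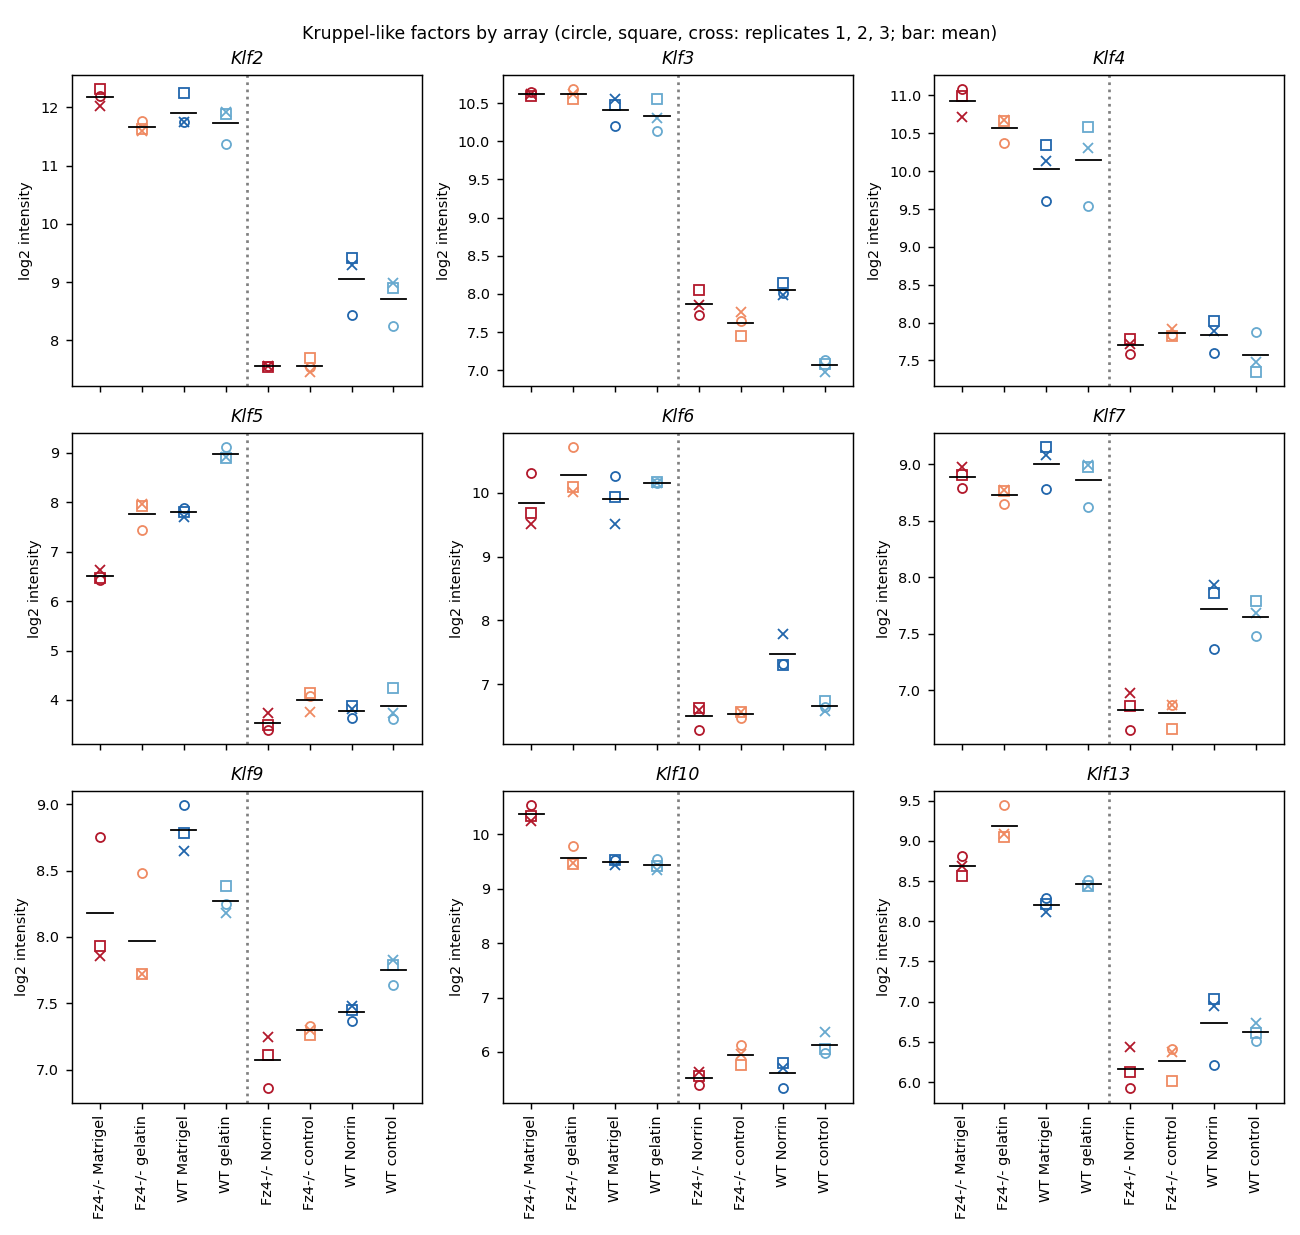
Log2 intensity of the 9 Kruppel-like factors on each array (y axis) in the 8 groups (x axis), with cells grown alone left of the dotted line and co-cultures right of it. Symbols are the 3 replicates and bars their mean, and levels are not comparable across the dotted line, nor between genotypes right of it. Klf5 falls on Matrigel in both genotypes, and Klf10 stands at 10.24 to 10.53 only in the Fz4-/- Matrigel arrays.

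Klf10 rose on Matrigel in Fz4-/- cells. Klf10 was first known as a gene that TGF-beta induces early and that restrains growth. It measured 10.53, 10.33 and 10.24 in Fz4-/- cells on Matrigel, against 9.78, 9.46 and 9.47 in the same cells on gelatin. In wild type cells it measured 9.52, 9.53 and 9.44 on Matrigel and 9.55, 9.42 and 9.35 on gelatin. The Fz4-/- Matrigel arrays stood above the 9 other arrays of cells grown alone, and those 9 overlapped. The log2 difference was 0.80 ± 0.11 for Matrigel in Fz4-/- cells (adjusted p = 0.000703) and 0.05 ± 0.11 in wild type cells (adjusted p = 0.801). Between the genotypes on Matrigel it was 0.87 ± 0.11 (adjusted p = 0.000247), a value that uses the same Fz4-/- arrays, and on gelatin 0.13 (adjusted p = 0.536). The difference of the Matrigel responses was 0.75 ± 0.15 (unadjusted p = 0.000464, adjusted p = 0.348), and did not pass. Both calls held under all 17 alternatives run, at adjusted p of at most 0.0403.

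Klf4 was higher in Fz4-/- cells on Matrigel, with both of its probe sets past the threshold, where 13.3% of all probe sets were called. It measured 11.09, 10.99 and 10.72 in Fz4-/- cells and 9.60, 10.35 and 10.14 in wild type cells. The groups did not overlap, with wild type replicate 1 well below the other arrays. The log2 difference was 0.91 ± 0.25 (adjusted p = 0.0302), and the second probe set gave 1.08 ± 0.23. On gelatin Klf4 measured 10.37, 10.66 and 10.67 in Fz4-/- cells and 9.54, 10.59 and 10.31 in wild type cells, a difference of 0.42 (adjusted p = 0.334). Without Fz4-/- replicate 1 or 2, or without wild type replicate 1 or 3, the Matrigel value was 0.83, 0.88, 0.69 or 0.96 and no longer passed (adjusted p 0.0633 to 0.0981), nor did it with replicates 2 and 3 averaged (adjusted p = 0.138).

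Klf2, the partner of Klf4 in flow signalling, was higher on Matrigel than on gelatin in Fz4-/- cells by a small step. It measured 12.20, 12.32 and 12.03 on Matrigel and 11.77, 11.62 and 11.59 on gelatin in those cells. In wild type cells it measured 11.74, 12.24 and 11.74 on Matrigel and 11.37, 11.89 and 11.92 on gelatin. The arrays separated by surface in Fz4-/- cells and overlapped in wild type cells. The log2 difference was 0.52 ± 0.17 in Fz4-/- cells (adjusted p = 0.0489) and 0.18 ± 0.17 in wild type cells (adjusted p = 0.492), and the difference of these responses was 0.34 (95% interval -0.18 to 0.86). The call in Fz4-/- cells lay at the threshold and was lost under 10 of 17 alternatives, among them each of the 6 arrays left out in turn (0.45 to 0.60, adjusted p up to 0.144).

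Klf9, which glucocorticoids and thyroid hormone induce in many tissues, had no call at the level of the gene in cells grown alone. It measured 8.75, 7.93 and 7.86 in Fz4-/- cells and 8.99, 8.78 and 8.65 in wild type cells on Matrigel. On gelatin it measured 8.48, 7.72 and 7.72 in Fz4-/- cells and 8.25, 8.38 and 8.18 in wild type cells. Replicate 1 stood well above the other Fz4-/- arrays on either surface, within the wild type range or above it. The genotype difference on Matrigel was -0.62 ± 0.24 (adjusted p = 0.113, 0.0202 with the replicate block and 0.0151 as -0.91 without Fz4-/- Matrigel replicate 1). Matrigel gave 0.53 ± 0.24 in wild type cells (adjusted p = 0.153, 0.0385 with the block) and 0.21 in Fz4-/- cells (adjusted p = 0.596). Among its 7 probe sets a dim one rose on Matrigel by 1.33 ± 0.18 in Fz4-/- cells and by 1.22 ± 0.18 in wild type cells, and another rose by 0.89 ± 0.25 in Fz4-/- cells. By surface 19.1% of all probe sets were called in Fz4-/- cells and 17.2% in wild type cells.

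Klf3, Klf6 and Klf7 had no call at the level of the gene in cells grown alone. Klf3, a repressor that recruits CtBP proteins, averaged 10.62 in Fz4-/- cells on either surface, against 10.41 on Matrigel and 10.33 on gelatin in wild type cells. Klf6, a factor induced in injured vessels, averaged 9.84 on Matrigel and 10.27 on gelatin in Fz4-/- cells and 9.91 and 10.16 in wild type cells. Its Matrigel value in Fz4-/- cells was -0.43 ± 0.24 (adjusted p = 0.234, 0.0494 with the block). Among the other probe sets, 2 of Klf3 passed by surface in Fz4-/- cells (-0.72 and 0.37) and 1 in wild type cells (-0.44). For Klf6 1 passed in each (-0.87 in Fz4-/- cells and -0.69 in wild type cells). Of all probe sets 19.1% and 17.2% were called in these comparisons. Klf7, known from neuron development, lay between 8.62 and 9.15 on the 12 arrays of cells grown alone.

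Counted over the 9 members, 1 was higher and 1 lower in Fz4-/- than in wild type cells on gelatin, where 14.9% of all genes were called in either direction. On Matrigel 3 were higher and 1 lower (15.7% of all genes). Between Matrigel and gelatin 2 were higher and 2 lower on Matrigel in Fz4-/- cells (19.7% of all genes), and 1 was lower in wild type cells (18.4% of all genes). The counts for genotype on gelatin and for Matrigel in wild type cells are near these backgrounds, and with 9 genes the larger counts lie above them by few members. The median member difference was 0.11 on gelatin and 0.21 on Matrigel by genotype, beside -0.004 and 0.021 for all genes. No member passed the test of a genotype difference in the Matrigel response in limma, which 0.0165% of all genes passed, and 1 of 9, Klf10, had an unadjusted p under 0.05.

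**Figure D2:**
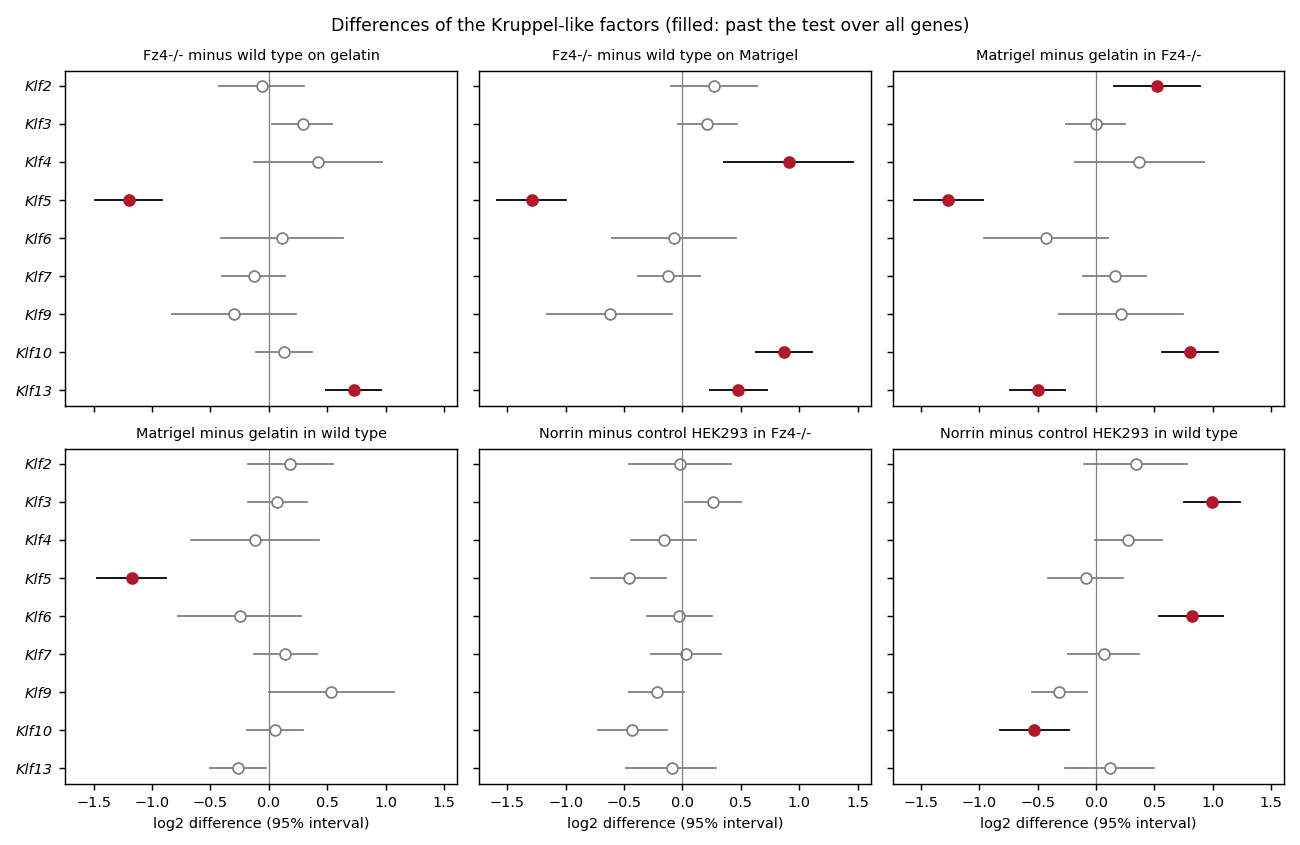
Log2 difference of each of the 9 Kruppel-like factors (x axis, with 95% interval) in 6 comparisons. Filled points pass the test over all genes: Klf5 is lower in 4 panels, between -1.17 and -1.29, and Klf3 (0.99) and Klf6 (0.82) are higher in the panel for Norrin in wild type cells.

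In wild type co-cultures Klf3, Klf6 and Klf10 differed between the mixtures with Norrin cells and those with control cells. Klf3 measured 8.01, 8.14 and 7.99 with Norrin cells and 7.13, 7.08 and 6.98 with control cells. Klf6 measured 7.32, 7.30 and 7.78 with Norrin cells and 6.64, 6.73 and 6.58 with control cells. Klf10 measured 5.33, 5.79 and 5.70 with Norrin cells and 5.99, 6.05 and 6.37 with control cells. The 3 genes had no overlap between the groups, with Klf3 and Klf6 higher and Klf10 lower with Norrin. The log2 differences were 0.99 ± 0.11 for Klf3 (adjusted p = 1.37e-05), 0.82 ± 0.13 for Klf6 (adjusted p = 0.000457) and -0.53 ± 0.14 for Klf10 (adjusted p = 0.0228). Thus 2 members were higher and 1 lower, where 9.57% of all genes were called. The Klf3 call was kept under 16 of 18 alternatives and the Klf6 call under 17 of 18. The Klf10 call was lost under 4 of 18: without control replicate 3 (-0.41, adjusted p = 0.11), without Norrin replicate 1 (-0.39, adjusted p = 0.0824), with only the arrays compared (-0.53, adjusted p = 0.0963) and with replicates 2 and 3 averaged (-0.56, adjusted p = 0.107).

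In Fz4-/- co-cultures no member passed in limma, where 0.456% of all genes did, and 3 (Klf3, Klf5 and Klf10) had an unadjusted p under 0.05. Klf3 measured 7.72, 8.05 and 7.85 with Norrin cells and 7.64, 7.45 and 7.76 with control cells. Klf6 measured 6.28, 6.62 and 6.60 with Norrin cells and 6.47, 6.56 and 6.57 with control cells. Both overlapped between the groups, at 0.26 ± 0.11 (adjusted p = 0.539) and -0.03 ± 0.13 (adjusted p = 0.974). Klf10 measured 5.39, 5.55 and 5.64 with Norrin cells and 6.13, 5.76 and 5.96 with control cells, without overlap, and its value of -0.43 ± 0.14 did not pass (adjusted p = 0.327).

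The test of the difference between the genotypes' Norrin responses passed for Klf3 and Klf6 and for no other member, where 2.12% of all genes passed. The response of Fz4-/- cells minus that of wild type cells was -0.73 ± 0.16 for Klf3 (adjusted p = 0.0216) and -0.85 ± 0.18 for Klf6 (adjusted p = 0.019), and for Klf10 it was 0.10 (95% interval -0.32 to 0.52). The Klf3 call was lost under 10 of 24 alternatives and the Klf6 call under 9 of 24, each with the sign kept.

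The probe sets of the responding genes did not all move alike. All 5 Klf6 probe sets rose with Norrin in wild type cells, by 0.43 to 1.13 log2, where 7.17% of all probe sets were called. The smallest rise was that of a very dim probe set, at means of 2.05 with control cells and 2.49 with Norrin cells. In Fz4-/- cells the Klf6 values lay between -0.03 and 0.35 with none past the threshold (0.197% of all probe sets were). The difference of the responses itself passed for 1 of 5 Klf6 probe sets and 1 of 7 Klf3 probe sets, where 1.45% of all probe sets passed. Of the 7 Klf3 probe sets 2 rose, by 0.99 ± 0.11 and 0.63 ± 0.14, and the other 5 lay between -0.22 and 0.11. With its 7 probe sets averaged, in place of the brightest one alone, Klf3 gave 0.23 (adjusted p = 0.258). Whether mouse probes also take up human KLF transcripts in these mixtures was not tested.

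Markers of several cell types moved with Norrin in the same arrays. Of 10 endothelial markers, 9 rose in wild type co-cultures, where 9.57% of all genes were called, with a median log2 difference of 0.88. Their summed linear intensity was 1280 to 1650 with Norrin cells and 746 to 885 with control cells. In Fz4-/- co-cultures 1 of 10 rose (0.456% of all genes were called), with a median of 0.23. The sums there were 1600 to 1840 with Norrin cells and 1400 to 1530 with control cells. The response differed between genotypes for 4 of 10 (median -0.62), where 2.12% of all genes passed. In a mixed culture, more mouse cells and more of a transcript per mouse cell cannot be told apart. The rises of Klf3 (0.99) and Klf6 (0.82) were about as large as the mean rise of these markers, 0.88. Centring each array on the markers, an alternative chosen after the data were seen, takes that 0.88 from every gene alike, so that 97.2% of all genes were then called and the median gene stood at -0.90. Relative to the markers Klf3 was 0.11 (adjusted p = 0.417), Klf6 -0.06 (adjusted p = 0.685) and Klf10 -1.40, and the difference of responses was -0.08 for Klf3 and -0.20 for Klf6.

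The other marker lists did not move as one in wild type co-cultures. Of 6 fibroblast markers Dcn fell by 2.91 log2, and the collagen genes Col3a1 (0.95 ± 0.13) and Col1a2 (0.80 ± 0.14) rose. Of 5 leukocyte markers Cd68 fell by 2.29 log2, and of 9 mural markers Acta2 rose (0.90 ± 0.12) and Notch3 fell (-0.46 ± 0.12). The responses of Dcn (2.60 ± 0.31) and Cd68 (1.95 ± 0.30) differed between the genotypes (Fz4-/- minus wild type), as did those of Acta2 (-0.91 ± 0.17), Col3a1 (-0.94 ± 0.19) and Col1a2 (-0.86 ± 0.20). Their part in the results for Klf3 and Klf6 was not tested.

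**Figure D3:**
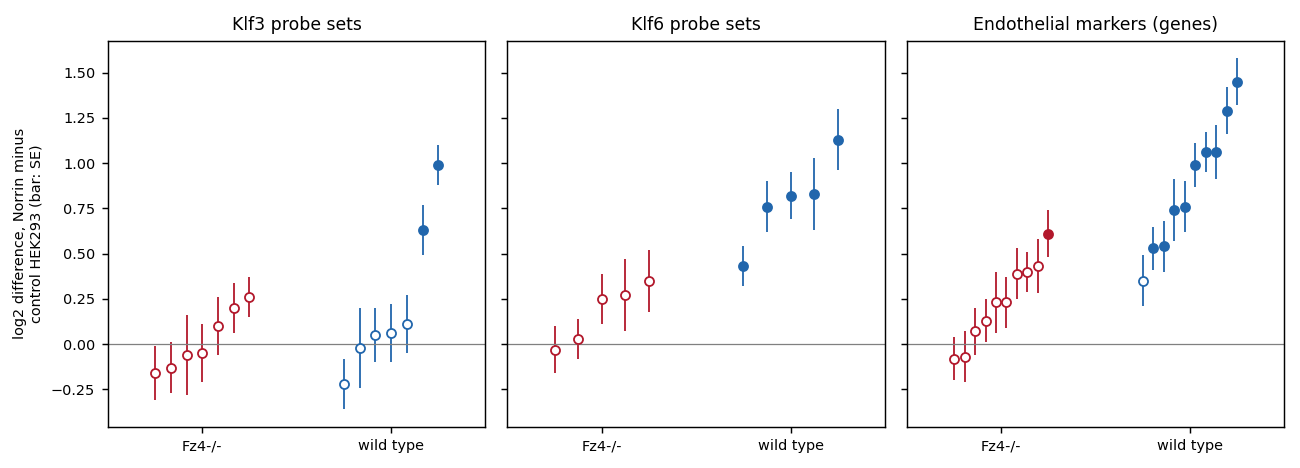
Log2 difference between Norrin and control HEK293 co-cultures (y axis, bars are SE) for the Klf3 probe sets, the Klf6 probe sets and 10 endothelial marker genes, in Fz4-/- and wild type cells (x axis). Filled points pass the test. In wild type cells all 5 Klf6 probe sets and 9 of 10 markers are filled, against 2 of 7 for Klf3, and in Fz4-/- cells 1 marker is.

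The other members did not pass with Norrin in wild type cells. Klf2 measured 8.43, 9.41 and 9.30 with Norrin cells and 8.24, 8.90 and 8.98 with control cells, a difference of 0.34 ± 0.21 (adjusted p = 0.397). Replicate 1 lay lowest in both groups, and without it in every group, also a later choice, the value was 0.41 and passed (adjusted p = 0.0362). Klf4 gave 0.27 ± 0.13 (adjusted p = 0.254) and Klf9 gave -0.32 ± 0.11 (adjusted p = 0.0844), with no overlap between the groups for Klf9. Klf5, Klf7 and Klf13 lay between -0.09 and 0.12.

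The kinase route and Mef2 factors upstream of Klf2 and Klf4 were compared as a list of 8 genes. In Fz4-/- against wild type cells on Matrigel 4 were higher and none lower, where 15.7% of all genes were called. The median was 0.33 beside 0.021 for all genes. Mef2a, which binds the Mef2 box, was higher by 0.79 ± 0.11 (adjusted p = 0.000583), Mef2c by 0.70 ± 0.09 (adjusted p = 0.00034) and the kinase Map3k2 by 0.53 ± 0.11 (adjusted p = 0.00694). On gelatin 2 were higher, Map3k2 (0.47) and Map2k5 (0.49), where 14.9% of all genes were called. On Matrigel against gelatin Mef2c rose by 0.89 ± 0.09 and Mef2a by 0.53 ± 0.11 in Fz4-/- cells (19.7% of all genes were called). In wild type cells no gene of the list passed in limma (1 of 8 at an unadjusted p under 0.05), and Mef2c was 0.24 (adjusted p = 0.0899). The genotype difference in these Matrigel responses passed for none of the 8 (2 at an unadjusted p under 0.05). Heg1, the receptor that anchors the cavernous malformation complex, was higher in Fz4-/- cells by 0.85 ± 0.14 on gelatin and 0.91 ± 0.14 on Matrigel, and the other 3 genes of that complex did not pass. The part of these genes in the results for Klf2 and Klf4 was not tested.

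Of 11 genes that Klf2 and Klf4 are known to induce, 5 were higher and none lower in Fz4-/- than in wild type cells on Matrigel. The median was 0.42, and 15.7% of all genes were called in this comparison. Plpp3, which breaks down lysophosphatidic acid, was higher by 1.73 ± 0.16, the protease gene Adamts5 by 1.16 ± 0.33 and the angiopoietin receptor gene Tek by 0.84 ± 0.12. On gelatin 4 were higher and 2 lower (14.9% of all genes were called). On Matrigel against gelatin 4 rose and 2 fell in Fz4-/- cells, where 19.7% of all genes were called, led by Adamts4 (1.62 ± 0.18) and Adamts5 (1.56 ± 0.33). In wild type cells 2 rose and 2 fell (18.4% of all genes were called). Those that rose were Tek (0.80 ± 0.12, beside 0.98 ± 0.12 in Fz4-/- cells) and Nppc (0.66 ± 0.14). Among those that fell was the thrombomodulin gene Thbd, by 0.85 log2. The genotype difference in these Matrigel responses passed in limma for none of the 11 (3 at an unadjusted p under 0.05), where 0.0165% of all genes passed. Of 7 measured genes that Klf2 and Klf4 restrain, 3 fell on Matrigel in Fz4-/- cells and none rose, beside the same 19.7% of all genes. These were the tissue factor gene F3 (-2.36 ± 0.54), the endothelin gene Edn1 (-1.32 ± 0.30) and Adm (-0.98 ± 0.14). In wild type cells F3 (-2.87 ± 0.54) and Adm (-1.03 ± 0.14) fell as well. Between genotypes on Matrigel 1 restrained gene was higher in Fz4-/- cells, Adm (0.60 ± 0.14), and 1 lower, the adhesion molecule gene Vcam1 (-0.78 ± 0.23). Whether Klf2 or Klf4 had a part in the differences of these induced and restrained genes was not tested.

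With Norrin in wild type co-cultures 4 of the 11 induced genes rose, where 9.57% of all genes were called. Among them were the receptor genes S1pr1 (1.11 ± 0.19) and Tek (0.99 ± 0.12). Adamts5 rose by 0.65 ± 0.17, less than the 0.88 of the endothelial markers, of which Tek is itself one. Of the 7 restrained genes 3 fell and 2 rose: the chemokine gene Ccl2 fell by 1.94 log2, and Edn1 (0.99 ± 0.13) and F3 (0.96 ± 0.18) rose. In Fz4-/- co-cultures none of the induced genes passed (2 of 11 at an unadjusted p under 0.05), where 0.456% of all genes were called. Of the restrained genes Adm rose (0.72 ± 0.13) and Sele fell by 1.31 log2 there. Any part of Klf2 or Klf4 in these changes was not tested.

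**Figure D4:**
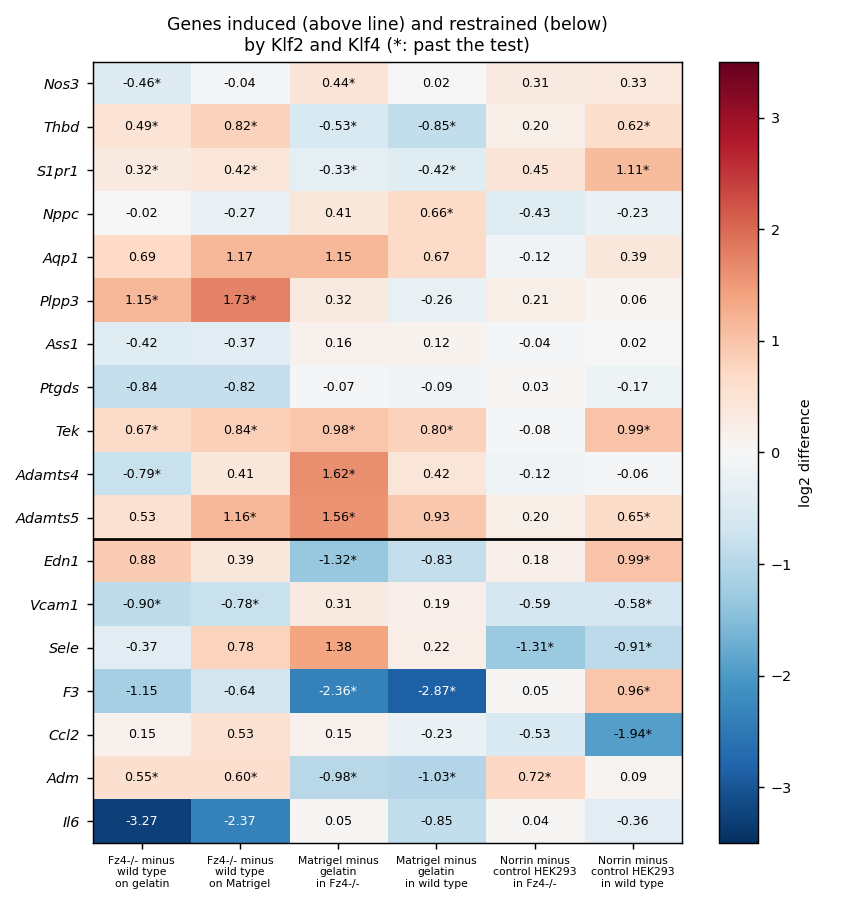
Log2 difference of 11 genes induced (above the line) and 7 genes restrained (below it) by Klf2 and Klf4, by comparison (columns), with stars for those past the test. Tek is starred in 5 of 6 columns, and F3 is lowest in the Matrigel columns, at -2.36 and -2.87.

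Beside the genotype and Matrigel results of Klf4, Klf5, Klf10 and Klf13, markers of cell types moved as follows. The mean log2 level of the 10 endothelial markers was 9.95 to 10.17 in Fz4-/- and 9.73 to 9.79 in wild type cells on Matrigel, and 9.70 to 9.72 in Fz4-/- and 9.52 to 9.56 in wild type cells on gelatin. Of these markers 3 were higher in Fz4-/- cells on either surface, where 14.9% of all genes were called on gelatin and 15.7% on Matrigel. The mural marker Acta2 was higher in Fz4-/- cells on gelatin (1.28 ± 0.18) and lower on Matrigel than on gelatin in both genotypes (-1.80 ± 0.18 in Fz4-/- cells and -0.93 ± 0.18 in wild type cells), and Notch3 was lower in Fz4-/- cells (-1.54 ± 0.19 on gelatin and -2.15 ± 0.19 on Matrigel). Of 6 fibroblast markers Pdgfra was lower in Fz4-/- cells (-1.31 ± 0.26 on gelatin and -1.79 ± 0.26 on Matrigel), as was Col3a1 on Matrigel (-1.21 ± 0.36). Dcn stood higher in Fz4-/- cells without passing (1.47 ± 0.68 on gelatin, adjusted p = 0.194, and 1.33 ± 0.68 on Matrigel, adjusted p = 0.234). Col1a1 was higher on Matrigel than on gelatin (0.52 ± 0.10 in Fz4-/- cells and 0.77 ± 0.10 in wild type cells). The part of these shifts in the results for the Kruppel-like factors was not tested.

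The genes most like each member were found by Pearson correlation over the 24 arrays, after the mean of its array set was taken from each value, as a description in which the groups are shared. Klf5 was followed most closely by Zfp296 (r = 0.946) and Ankrd1 (0.941), and Klf13 by Sdhb (0.924) and Ppp1r14b (0.919). Klf3 was nearest to Elk3 (0.912) and Hsph1 (0.910), and Klf6 to Gng11 (0.851) and Psmd6 (0.834). Klf4 was nearest to Ecm1 (0.887) and Ckb (0.880), and Klf2 to Tgfb1 (0.844) and Frmd8 (0.820). Klf10 was nearest to Cxxc5 (0.884) and Kdm1a (0.882), Klf7 to Pld3 (0.872) and Ikbkg (0.866), and Klf9 to Cd247 (0.839) and Il18rap (0.837). Among the members themselves the highest value was 0.66 for Klf2 with Klf7 and the lowest -0.59 for Klf10 with Klf5. With all probe sets of a gene averaged, most of these neighbours changed. Klf3, Klf7, Klf9 and Klf13 kept neither of theirs, and each other member lost a neighbour. Fn1 (0.923) then came first for Klf6 and Il1rap (0.946) for Klf5.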

How the data were processed

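Biotin-labelled total RNA of 24 samples was hybridised to 24 Affymetrix mouse arrays. The authors deposited log2 probe set intensities made with RMA, per the submitters' processing notes, which name no version and do not name the arrays that shared a normalization. The deposited log2 values were used as they stand. After 64 control probe sets, 932 probe sets with several symbols and 9160 with none were left out, 34945 probe sets remained, of which RefSeq held 34741 by gene ID. Of several probe sets for a gene the brightest on average stood for it.

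The package limma (version 3.58.1), with data.table (version 1.17.8) and R (version 4.3.3), fitted a mean per group in the 12 arrays of cells grown alone and, apart from them, in the 12 of co-cultures. A call is a p under 0.05 after Benjamini-Hochberg adjustment over 18193 genes, or over all 34945 probe sets where probe sets are counted. Promoters were searched with Python (version 3.11.15) and pandas (2.3.3), and plots were drawn with matplotlib (3.10.9). The procedure was tested on simulated data with known changes. The number of arrays limits the precision.

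The members, the gene lists and the tests were chosen with earlier results of these data known. Genes named are the 9 members, Fzd4 and Ndp, up to 3 called genes of each list in each comparison with the largest differences, and the 2 nearest genes by pattern. Pecam1, Vwf, Ptprc, Csf1r, Adgre1 and Itgam, given for their levels, were chosen after their values were seen. Ndp read 2.02 to 3.35 on all arrays, and the human gene in the HEK293 cells is not measured by it.

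Equal replicate numbers were checked by correlating the deviations of same-numbered arrays from their group means. Every pair was above 0.1 in the single cultures (0.24 to 0.72) and for Norrin in wild type cells, and not for Norrin in Fz4-/- cells (-0.19 to 0.01). In the single cultures only 2 to 5 arrays per comparison were closest to the array of their own number. Replicate 1 stood apart in the groups with values above 0.1, and a shared offset of it alone could give them. The check therefore cannot tell whether equal numbers mark matched cultures.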

Additional observations from a re-analysis of the deposited data

Results flagged for a closer look

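The Norrin response of Klf3 differed between the genotypes by -0.73 log2 (Fz4-/- minus wild type, limma adjusted p = 0.0216), and that of Klf6 by -0.85 log2 (adjusted p = 0.019), by the test of the difference of responses. In wild type co-cultures both genes were higher in 3 of 3 arrays with Norrin cells, and in Fz4-/- co-cultures their arrays overlapped. Of 24 alternatives, 10 lost the call for Klf3 and 9 lost it for Klf6. With all probe sets of a gene averaged, limma gave -0.20 for Klf3 (adjusted p = 0.7) and -0.62 for Klf6 (adjusted p = 0.064).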

How the results depend on the processing

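Over 1356 recomputed values for the members, 1270 kept their direction and their side of the threshold, 50 lost a call, 30 gained one and 6 turned, and of 1524 values for the named list genes 1277 kept both. The number of members called changed by over 1.5 times as follows. With probe sets without a suffix it was 1 for genotype on gelatin, 2 for genotype on Matrigel, 2 for Matrigel in Fz4-/- cells, 0 for Matrigel in wild type cells and 1 for the Norrin response difference. With replicates 2 and 3 averaged it was 2 for genotype on Matrigel, 2 for Matrigel in Fz4-/- cells and 0 for the Norrin response difference. Averaging all probe sets of a gene gave 2 for Matrigel in wild type cells and 0 for the Norrin response difference, all 24 arrays in 1 fit gave 1 for the same difference, and only the arrays compared gave 2 for Matrigel in wild type cells. The replicate block gave 3 for Matrigel in wild type cells, where Klf9 (0.53, adjusted p = 0.0385) and Klf13 (-0.26, adjusted p = 0.0428) joined Klf5 and 26.4% of all genes were called.

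Leaving out 1 array at a time gave 2 to 4 members for genotype on Matrigel, 3 for Matrigel in Fz4-/- cells, 2 to 4 for Norrin in wild type cells and 0 to 2 for the Norrin response difference, and left the other counts as they were. Without replicate 1 of every group, chosen after seeing the data, the counts were 4 for genotype on gelatin (27.0% of all genes), 4 for Matrigel in wild type cells (28.0%), 1 for the Matrigel response difference (Klf10, 0.73, adjusted p = 0.0454, with 0.335% of all genes), 6 for Norrin in wild type cells (11.1%) and 1 for the Norrin response difference (2.47%), which was Klf4 (-0.66, adjusted p = 0.0456), while Klf3 (adjusted p = 0.0827) and Klf6 (adjusted p = 0.058) lost their calls.

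Centring on the 10 endothelial markers, also a later choice, takes 1 constant from every gene, 0.88 for Norrin in wild type cells, 0.23 in Fz4-/- cells and -0.64 for the response difference. It called 7 members in wild type cells, all lower, where 97.2% of all genes were called, and 2 in Fz4-/- cells (1.32%), and says nothing of single genes. By that construction the wild type Norrin values turned for Klf2 to -0.54, Klf4 to -0.60, Klf6 to -0.06, Klf7 to -0.81, Klf13 to -0.76, Adamts5 to -0.22, Fzd4 to -0.72, Hdac1 to -0.13, Heg1 to -0.16, Mef2c to -0.41, Ndp to -0.84, Skil to -0.27, Sp5 to -0.08 and Tgfbi to -0.37, and the response differences of Klf7 to 0.61, Fzd4 to 0.42 and Ndp to 0.53. With 3 arrays per group, differences much smaller than the called ones could not be shown.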

Other observations

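Of 8 other Kruppel-like factors listed, 7 were measured. By surface 2 were higher and 1 lower on Matrigel in each genotype, and the other 4 did not pass. Of all genes 19.7% were called by surface in Fz4-/- cells and 18.4% in wild type cells. On Matrigel Klf11, a relative of Klf10, was higher by 0.51 ± 0.11 log2 in Fz4-/- cells and 0.68 ± 0.11 in wild type cells, Klf15, a glucocorticoid target, by 0.67 ± 0.11 and 0.56 ± 0.11, and Klf16 was lower (-0.80 ± 0.08 and -0.83 ± 0.08). None of the 7 passed in limma between genotypes on gelatin or Matrigel (0 and 0 at an unadjusted p under 0.05), or with Norrin in Fz4-/- or wild type cells (1 and 1). Of all genes 14.9% and 15.7% were called by genotype on gelatin and Matrigel, and 0.456% and 9.57% with Norrin in Fz4-/- and wild type cells. Of 7 measured Sp factors, which share the GC box with this family, Sp5, a target of beta-catenin, was lower on Matrigel (-1.62 ± 0.33 in Fz4-/- cells and -1.31 ± 0.33 in wild type cells) and higher with Norrin in wild type cells (0.80 ± 0.14, beside a mean of 0.88 for the endothelial markers).

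Of 3 ubiquitin ligase genes listed for this family, Fbxw7, which marks Klf2 and Klf5 for breakdown, was higher in Fz4-/- cells by 0.34 ± 0.09 on gelatin and 0.73 ± 0.09 on Matrigel. Of 9 cofactor genes Ep300 was higher in Fz4-/- cells (0.41 ± 0.09 on either surface), and Kat2b lower (-0.42 ± 0.10 on gelatin and -0.51 ± 0.10 on Matrigel). Hdac1 alone rose with Norrin in wild type cells (0.74 ± 0.10), where 9.57% of all genes were called. Its response differed between genotypes (-0.77 ± 0.15, adjusted p = 0.00743), where 2.12% of all genes passed. The endothelial markers had means of 0.88 and -0.64 in these 2 comparisons. Among 16 immediate early genes, a class to which several of the family belong, 3 fell and none rose on Matrigel in Fz4-/- cells, where 19.7% of all genes were called, and 4 fell and none rose in wild type cells (18.4% of all genes). In Fz4-/- cells these included Fos (-1.36 ± 0.39) and Jun (-0.75 ± 0.11). With Norrin in wild type cells 4 fell, among them Atf3 (-1.18 ± 0.13) and Ier3 (-0.86 ± 0.12), and 1 rose, Dusp1 (1.16 ± 0.12), where 9.57% of all genes were called. In Fz4-/- co-cultures 2 fell with Norrin, Junb (-0.62 ± 0.12) and Ier3 (-0.56 ± 0.12), and none rose, where 0.456% of all genes were called. Of 6 glucocorticoid-induced genes Per1 (-0.49 ± 0.11) and Zbtb16 (-0.41 ± 0.13) fell on Matrigel in wild type cells, and none passed by surface in Fz4-/- cells. With Norrin in wild type cells 1 of the 6 rose, Sgk1 (0.89 ± 0.11), beside a mean of 0.88 for the endothelial markers. Its response differed between genotypes (-1.19 ± 0.15), where 2.12% of all genes passed. Of 5 measured early genes of the TGF-beta pathway, which induces Klf10, Tgfbi was higher in Fz4-/- cells by 2.26 ± 0.13 on gelatin and 2.35 ± 0.13 on Matrigel. Tgif1 was higher on Matrigel (0.36 ± 0.09), and 14.9% and 15.7% of all genes were called by genotype on gelatin and Matrigel. With Norrin in wild type cells Skil (0.60 ± 0.11) and Tgfbi (0.51 ± 0.15) rose, while Klf10 fell (-0.53). Any part of this pathway in the Klf10 results was not tested.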
